A study of Mus musculus with 12 samples.

Results

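The genes described here encode the machinery that brings a secreted protein into the endoplasmic reticulum (ER) and carries it on to the Golgi. They were chosen by name from the annotation of the array: Sec11, Sec13, Sec22 to Sec24, Sec31, Sec61 and Sec63 genes, the Ssr, Spcs, Srp, Tmed, Kdelr, Sar1, Lman and Trappc families, Mcfd2, Arcn1 and the coatomer genes beginning Cop. The rule used no measured value and found 72 of the 27962 gene names on the array, measured by 143 of 41174 probes. Of these, 71 fall into 8 role groups, and the remaining one, Copg2as2, is named as an antisense transcript of a coatomer gene.

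Hypertrophic zones were microdissected from the tibial growth plates of 14 day old mice, with 1 tibia taken from each mouse according to the methods of the study, and each RNA sample was linearly amplified more than once and hybridized to its own single-colour Agilent array. There were 4 groups of 3 arrays. Schmid mice carry the Col10a1 p.Asn617Lys mutation in collagen X, in the homozygous state according to the methods of the study, and their controls were wildtype mice of the same background. Cog mice (ColXTgcog) express a misfolding form of thyroglobulin from a transgene under the collagen X promoter, so that it is made in hypertrophic chondrocytes, with wildtype mice of the Cog background as controls. Hemizygous and homozygous Cog mice were not told apart by the study. The wildtype mice were littermates, and each group has a wildtype of its own, so the Schmid and Cog comparisons share no control array.

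A protein made for secretion is recognised by its signal sequence while it is still on the ribosome. The signal recognition particle (SRP) delivers it to the SRP receptor and the Sec61 channel, and signal peptidase removes the signal. Folded cargo leaves the ER in vesicles coated by COPII, some of it held by cargo receptors, while COPI vesicles return escaped ER proteins and receptors from the Golgi. Hypertrophic chondrocytes secrete collagen X in bulk, and mutations of Sec23a and Sec24d are known to disturb the skeleton.

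The promoters of the members are shown first, since several genes of this pathway are known targets of the bZIP transcription factors of the unfolded protein response, which bind elements containing TGACGTGG. RefSeq promoters of build GRCm38.p6, each from 250 bases before to 50 bases after a transcription start, were found for 57 of the 72 genes (59 promoters). TGACGTGG, searched on both strands, occurred in 5 of these promoters (8.47%), those of Copb1, Copb2, Kdelr3, Sec23a and Sec24d, and in 222 of all 32851 promoters in the table (0.676%). Its reverse complement, CCACGTCA, holds the CCACG that ends the ER stress response element. These 5 are printed because they are the members that carry the element, from 110 bases before to 25 bases after the start, with the matched bases in capitals.
Copb1: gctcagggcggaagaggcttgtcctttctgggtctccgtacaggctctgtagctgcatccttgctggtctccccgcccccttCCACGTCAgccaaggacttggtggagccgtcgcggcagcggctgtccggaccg
Copb2: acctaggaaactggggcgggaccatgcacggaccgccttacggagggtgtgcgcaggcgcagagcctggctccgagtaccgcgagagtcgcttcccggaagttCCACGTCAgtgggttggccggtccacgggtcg
Kdelr3: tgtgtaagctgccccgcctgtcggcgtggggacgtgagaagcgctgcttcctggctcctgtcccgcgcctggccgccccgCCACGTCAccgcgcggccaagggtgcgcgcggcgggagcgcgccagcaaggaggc
Sec23a: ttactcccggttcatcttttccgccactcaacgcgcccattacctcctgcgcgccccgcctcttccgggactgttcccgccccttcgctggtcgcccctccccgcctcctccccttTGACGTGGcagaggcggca
Sec24d: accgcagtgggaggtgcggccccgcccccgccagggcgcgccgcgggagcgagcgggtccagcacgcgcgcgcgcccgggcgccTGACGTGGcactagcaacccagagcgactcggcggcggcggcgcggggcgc
The windows are chr7:114254656-114254790 (minus strand) for Copb1, chr9:98563621-98563755 (plus strand) for Copb2, chr15:79516298-79516432 (plus strand) for Kdelr3, chr12:59011993-59012127 (minus strand) for Sec23a and chr3:123267386-123267520 (plus strand) for Sec24d. Counting the start as base 1, the first matched base was at -28 in Copb1, -7 in Copb2, -30 in Kdelr3, -26 in Sec24d and 7 in Sec23a. The cyclic AMP response element TGACGTCA occurred in 1 member promoter (1.69%), that of Cope, and in 1.79% of all promoters. The ER stress response element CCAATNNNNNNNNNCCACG (0.119% of all promoters), its second form, ERSE-II (0.0365%), and the amino acid response core TTGCATCA (0.895%) were each in 0 of the 59. A match describes the letters in these windows and is not evidence of binding. The set of all promoters was not matched to the members in base content or expression, and the motifs were chosen after the changes were known.

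Between 39.6 and 61.8% of the spots of an array were well above background, with the Schmid arrays at 58.9 to 61.8% and the Cog arrays at 39.6 to 48.1%. Their wildtypes were at 48.0 to 59.4% and 41.1 to 58.5%. The median negative control signal was 202 to 617 on the Schmid arrays and 977 to 1199 on their wildtypes. On the Cog arrays it was 1261 to 1894, against 999 to 1885. The part of this background in the values below was not tested. Of the 72 genes, 65 were well above background on all 12 arrays at their brightest probe, which stands for the gene below, and 1, Tmed6, on none. Col10a1, which marks the hypertrophic zone, was well above background on all 12 arrays. Its log2 difference in Schmid was -0.02, and in Cog its log2 signal was 14.71 to 15.40 against 13.75 to 14.67 (adjusted p = 0.387). Tgn, the thyroglobulin gene, was 239-fold higher in Cog (adjusted p = 1.24e-09). Hspa5, which encodes the ER chaperone BiP, was 4.12-fold higher in Schmid and 4.84-fold higher in Cog, and Ddit3, which encodes Chop, was 22.5-fold and 12.6-fold higher.

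Some markers of chondrocytes and of other cells were lower in the mutants, mostly in Schmid. In Schmid, 3 of 5 red cell markers were lower, and the log2 of their summed signal was 14.59 to 16.05 against 17.94 to 19.91 in the wildtype. Of 6 endothelial markers on the array 3 were lower (summed level 12.49 to 13.01 against 14.22 to 14.97). Lower too were 1 of 3 macrophage, 1 of 4 osteoblast, 1 of 6 hypertrophic and 1 of 6 proliferative chondrocyte markers. Of the osteoclast and neutrophil markers 0 of 5 each passed, although the summed osteoclast level lay below the wildtype (13.22 to 13.53 against 13.64 to 14.92). The summed neutrophil level was 12.01 to 13.83 against 12.34 to 17.22. All 5 neutrophil markers were highest on replicate 1 of these wildtype arrays. Among the defining markers, the osteoclast gene Atp6v0d2 was above background on none of the 12 arrays. In Cog, 1 hypertrophic and 1 osteoblast marker were lower and none of the other lists had a marker that passed the test in limma. The hypertrophic marker was Ihh in both mutants, 11.7-fold lower in Schmid (adjusted p = 0.000136) and 2.58-fold lower in Cog (adjusted p = 0.0361). The part of these cells in the values below was not tested, and in a dissected tissue fewer cells of a type cannot be told apart from less RNA per cell. Mutant arrays never shared a slide with arrays of their own wildtype, and here too the effects cannot be told apart.

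In Schmid, 13 of the 72 genes rose (18.1%) and 2 fell (2.78%), with a change of at least 2-fold and an adjusted p up to 0.05, against 5.8% and 5.75% of all 27962 genes. The 13 were Srp14, Srp54 and Srp72 of the SRP, Spcs3 of signal peptidase, Sar1b, Sec23a, Sec23b, Sec24a and Sec24d of the COPII coat, the cargo receptor subunit Mcfd2, Copb1 of the COPI coat, and Sec22a and Sec22c. The genes that fell were Tmed1 and Lman1l. The median difference of the 72 genes was 0.51 on the log2 scale, from -2.30 in Tmed1 to 2.12 in Srp54, while the median of all genes was -0.09. The difference was positive in 59 genes and negative in 13. By array, the median signal of the 72 genes was 14.71 to 14.97 in Schmid and 14.06 to 14.72 in the wildtype, which overlapped. All 3 Schmid arrays were above all 3 wildtype arrays in 40 genes (18.7% of all genes) and below them in 5 (27.7% of all genes), and the groups overlapped in 27. Among genes well above background on all arrays, 12 of the 65 members rose and 1 fell, against 8.73% and 11.3% of all such genes. At the adjusted p alone, with no fold required, 20 genes were higher and 3 lower, against 10.3% and 14.8% of all genes.

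**Figure D1:**
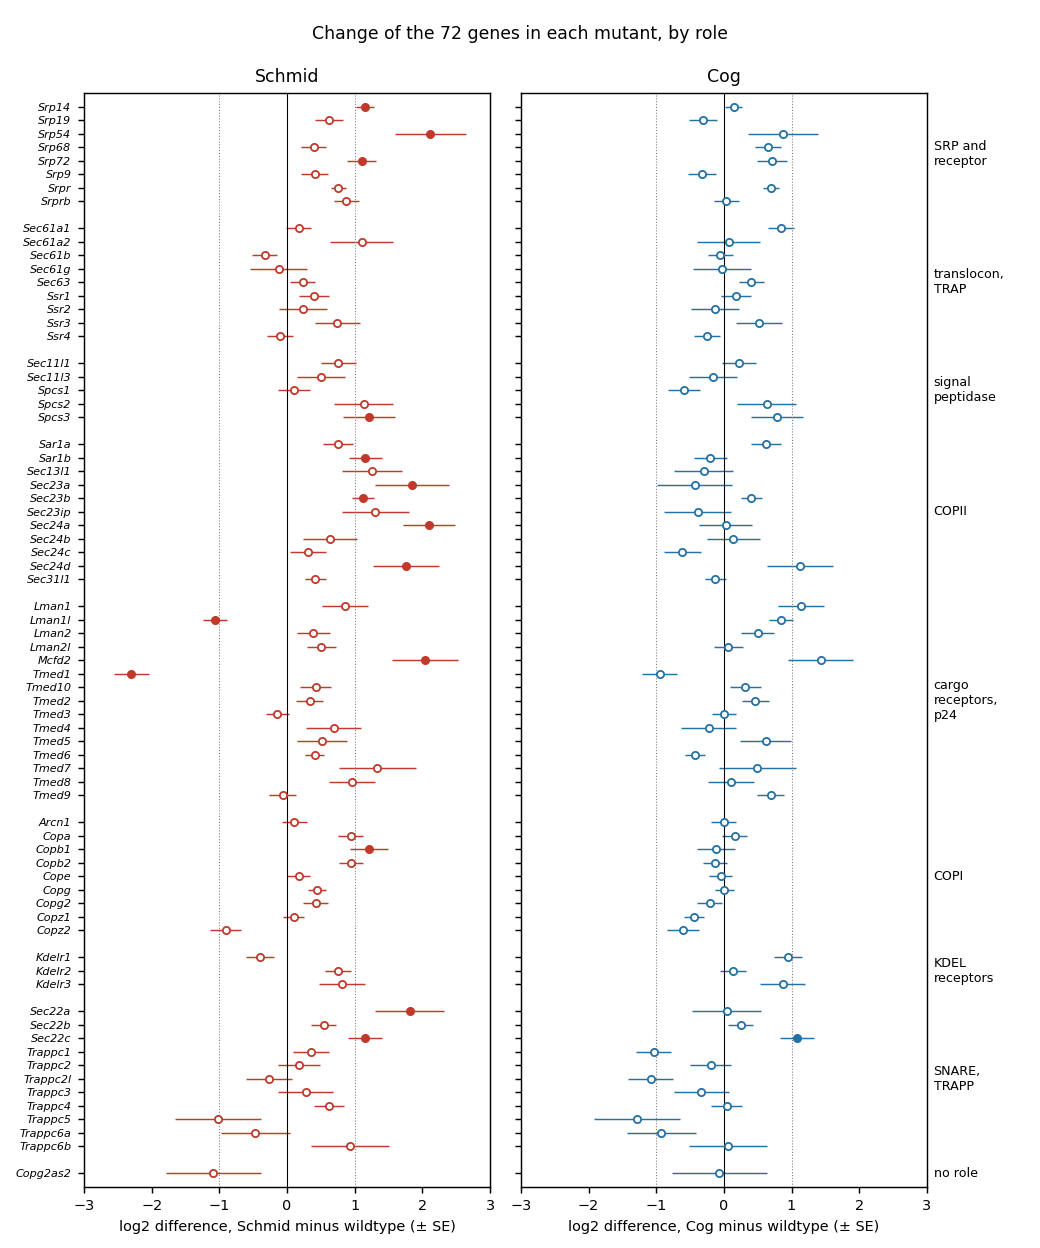
Log2 difference between mutant and own wildtype for the brightest probe of each of the 72 genes, in Schmid (left) and Cog (right), grouped by role. Bars are the standard errors of the fit, filled points passed the test (13 higher and 2 lower in Schmid, 1 higher in Cog), and dotted lines mark a 2-fold change.

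The count rested in part on single arrays. It was 4 without Schmid replicate 1 (Sec22c, Sec23b, Sec24a and Srp14 remained), 5 without wildtype replicate 2 of the Schmid background (the same 4 and Sar1b), 8 without wildtype replicate 3 and 25 without wildtype replicate 1, which included all 13. Wildtype replicate 1 was the highest array of its group in 50 of the 72 genes, against 26.2% of all genes, and replicate 2 in 5. Schmid replicate 1 was the highest of the Schmid arrays in 45 of the 72, against 38% of all genes. In the wildtype group of the Cog background replicate 1 was likewise highest in 47 of the 72, against 36.4% of all genes. Tmed1 alone remained among the lower genes without Schmid replicate 1.

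The SRP is a particle of several proteins on a small RNA. All 8 genes of the particle and its receptor had positive differences in Schmid (median 0.82). All 8 were above the wildtype on every array (18.7% of all genes), and 3 passed the test (5.8% of all genes). Srp14, which with Srp9 forms the part of the particle that slows translation, had log2 signals of 18.22, 18.28 and 18.37 on the Schmid arrays and 17.27, 17.01 and 17.13 on the wildtype arrays. The Schmid values lay close together and well above the wildtype, a 2.22-fold rise (log2 1.15, SE 0.13, adjusted p = 0.00036). In Cog the signals were 17.33, 17.67 and 17.48 against 17.49, 17.37 and 17.18. Those groups overlapped, and the difference was 0.15 (adjusted p = 0.554).

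Srp54, the GTPase subunit that binds the signal sequence, had signals of 17.17, 15.49 and 15.70 in Schmid and 14.32, 13.84 and 13.85 in the wildtype. Replicate 1 stood highest, and the groups were apart by a 4.35-fold rise (log2 2.12, SE 0.52, adjusted p = 0.016). A dimmer Srp54 probe differed by 0.68 (adjusted p = 0.0857). Srp72, which with Srp68 forms a pair on the particle, was at 15.78, 15.35 and 15.44 against 14.87, 14.15 and 14.25, a 2.14-fold rise (adjusted p = 0.00644). Its other probes differed by 1.18 and 1.07, of which the dimmest passed. The receptor subunit Srpr was at 13.28, 13.21 and 13.03 in Schmid against 12.54, 12.29 and 12.43, and at 12.70, 12.55 and 12.75 in Cog against 12.02, 11.92 and 11.98. Both mutants were above their wildtype on every array by similar amounts, 0.75 for Schmid (adjusted p = 0.00139) and 0.70 for Cog (adjusted p = 0.0103), each under 2-fold, and the difference between them was 0.06 (SE 0.16). A second Srpr probe rose 2.89-fold in Schmid (adjusted p = 0.0105). It was the only one of the 4 Srpr probes to pass, and their differences spanned 1.31 on the log2 scale. The membrane subunit of the receptor, Srprb, differed by 0.88 in Schmid (adjusted p = 0.00873) and 0.04 in Cog.

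The channel that the SRP feeds showed smaller differences. Of the 9 genes of the translocon and the translocon-associated TRAP complex 0 passed in Schmid, where 5.8% of all genes rose and 5.75% fell. Their median difference was 0.23 and was as low as -0.01 over 6 scalings. In 8 of them the arrays overlapped with the wildtype, as in 14987 of 27946 genes. Sec61a1 encodes the pore itself. Its brightest probe was at 17.33, 17.47 and 17.39 in Schmid against 17.24, 17.14 and 17.29 (0.17, adjusted p = 0.525), and at 17.97, 17.59 and 17.73 in Cog against 17.40, 16.64 and 16.71 (0.84, SE 0.19, adjusted p = 0.0335). The adjusted p was within the limit in Cog, at 1.79-fold, and the difference between the mutants did not pass (-0.67, adjusted p = 0.11). A second Sec61a1 probe gave another picture, with 15.50, 14.37 and 13.97 in Schmid against 14.03, 12.43 and 11.74. It passed at 3.69-fold (adjusted p = 0.029), although the lowest Schmid array lay under the highest wildtype array. Sec61g, the small gamma subunit, was at 18.01 to 18.90 in Schmid and 18.35 to 19.02 in the wildtype, with its spot saturated on 3 of the 12 arrays, and its difference was -0.13. Ssr1, a TRAP subunit, differed by 0.40 at its brightest probe (adjusted p = 0.207) and by -0.35 and 2.01 at the others, of which the dimmest passed (adjusted p = 0.0448) with 1 of the 3 wildtype arrays above background.

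All 5 signal peptidase genes had positive differences in Schmid (median 0.76) and 1 passed, where 5.8% of all genes rose. Spcs3, a subunit without catalytic activity of its own, was at 17.42, 16.51 and 16.68 in Schmid and 16.22, 15.32 and 15.44 in the wildtype. The groups did not overlap, and the rise was 2.31-fold (SE 0.38, adjusted p = 0.0444). It lost its call under 14 of 25 alternative settings, the most of any of the 13. In Cog it was at 16.69, 17.01 and 17.38 against 17.03, 16.04 and 15.65, with overlap. Spcs2 differed by 1.13 in Schmid but with a wider error (SE 0.43, adjusted p = 0.0806).

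The COPII coat carried the most calls in Schmid. All 11 of its genes had positive differences, with a median of 1.16. Of the 11, 9 were above the wildtype on every array (18.7% of all genes) and 5 passed (5.8% of all genes). Sec24a, one of the adaptors that select cargo, was at 12.94, 12.45 and 12.60 in Schmid and 11.41, 10.18 and 10.11 in the wildtype. The lowest Schmid array was well above the highest wildtype array, and the rise was 4.28-fold (log2 2.10, SE 0.39, adjusted p = 0.00426). Both other Sec24a probes passed as well. The first was above background on 0 of the 3 wildtype arrays and was at least 2.09-fold higher, and the second was 2.04-fold higher. In Cog, Sec24a was at 10.56, 10.94 and 11.38 against 11.55, 10.88 and 10.37, which overlapped.

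Sec24d, another adaptor, was at 16.63, 16.11 and 16.24 in Schmid and 15.43, 13.84 and 14.46 in the wildtype. The rise was 3.38-fold (SE 0.49, adjusted p = 0.027). In Cog its signals of 15.41, 16.06 and 16.28 against 15.85, 14.43 and 14.10 gave a difference of similar sign (1.13) that overlapped and did not pass (adjusted p = 0.217). The paralogs Sec24b and Sec24c differed in Schmid by 0.63 and 0.31 and overlapped with the wildtype. Sec23a and Sec23b encode the inner coat protein that pairs with Sec24 and activates the GTPase of Sar1. Sec23a was at 14.83, 14.19 and 14.16 in Schmid and 13.77, 11.76 and 12.10 in the wildtype, with wildtype replicate 1 well above the others, and rose 3.60-fold (SE 0.55, adjusted p = 0.0355). Its second probe, above background on 0 of the 12 arrays, differed by -0.04.

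Sec23b was at 14.93, 14.46 and 14.80 against 13.72, 13.58 and 13.53. Its replicates were tighter and the rise was 2.17-fold (SE 0.16, adjusted p = 0.00121). Sar1b, the GTPase that starts coat assembly, was at 16.10, 15.49 and 15.60 in Schmid against 14.96, 14.42 and 14.34, and rose 2.23-fold (adjusted p = 0.00866). In Cog it was at 13.96, 14.66 and 14.72 against 14.65, 14.80 and 14.48. The Cog arrays overlapped with their wildtype. Its paralog Sar1a differed by less than 2-fold in both mutants, at 0.75 for Schmid (adjusted p = 0.0325) and 0.63 for Cog (adjusted p = 0.133).

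Cargo receptors and the p24 family, the Tmed genes that cycle between ER and Golgi, had calls in both directions in Schmid. Of 15 genes 1 rose (5.8% of all genes) and 2 fell (5.75% of all genes), at a median of 0.42. Mcfd2, which with the lectin Lman1 exports clotting factors, was at 16.47, 16.04 and 16.15 in Schmid and 15.37, 13.52 and 13.65 in the wildtype. It rose 4.11-fold (log2 2.04, SE 0.48, adjusted p = 0.0139), and a second probe, above background on 0 of the 12 arrays, differed by -0.13. In Cog it was at 15.60, 15.77 and 15.87 against 15.17, 14.14 and 13.63. Every Cog array was above its wildtype, but the difference of 1.43 did not pass (adjusted p = 0.122). Lman1 itself was above its wildtype on every array in both mutants, by 0.86 (Schmid, adjusted p = 0.0919) and 1.14 (Cog, adjusted p = 0.0899), and did not pass in either.

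Tmed1 was the member with the lowest adjusted p among those that fell. It was at 12.38, 13.33 and 13.31 in Schmid against 15.09, 15.23 and 15.60, and at 14.46, 14.61 and 14.07 in Cog against 15.48, 15.31 and 15.20. Each mutant lay below its wildtype on every array. The fall in Schmid was 4.93-fold (log2 -2.30, SE 0.26, adjusted p = 0.000371), and the difference of -0.95 in Cog did not pass (adjusted p = 0.0669). The Schmid call held in all 25 alternative settings that could give it, with adjusted p up to 0.0397. Lman1l, a lectin related to Lman1, was at 9.04, 9.36 and 9.68 in Schmid, above background on 1 of the 3 arrays, against 10.34, 10.42 and 10.51. It was lower by 2.09-fold (adjusted p = 0.00262), while in Cog it was at 10.35, 10.43 and 10.50 against 9.27, 9.67 and 9.81 (0.84, adjusted p = 0.0287). These signals are among the dim ones, and a second Lman1l probe differed by -0.36 in Schmid and -0.13 in Cog.

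Tmed2 and Tmed10 form a complex of the p24 family. The brightest Tmed2 probe was at 18.60, 18.81 and 18.79 in Schmid against 18.65, 18.14 and 18.42, which overlapped, while a second probe was at 16.28, 15.54 and 15.46 against 15.18, 12.68 and 13.06 and passed at 4.34-fold (adjusted p = 0.0264). Tmed10 differed by 0.42 in Schmid and 0.32 in Cog at its brightest probe. A second Tmed10 probe was at 15.44, 15.50 and 15.79 in Cog against 14.44, 13.84 and 14.35, and passed at 2.58-fold (adjusted p = 0.00435). The probes of a gene thus did not always give the same call.

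In the COPI coat of 9 genes, 1 passed in Schmid, where 5.8% of all genes rose, and the median was 0.42. Copb1, the beta subunit, was at 14.63, 13.97 and 14.38 in Schmid and 13.75, 12.78 and 12.82 in the wildtype, and rose 2.31-fold (SE 0.28, adjusted p = 0.0134). Its other probe was not called in Schmid, and the differences of the 2 probes lay 0.99 apart on the log2 scale. In Cog the brightest Copb1 probe was at 13.12, 13.60 and 13.08 against 13.68, 13.34 and 13.12, which overlapped. Copa and Copb2, the alpha and beta-prime subunits, were each at 1.92 times the wildtype in Schmid (adjusted p = 0.00591 and 0.00537), just under the fold required. Copz2 had the one negative difference of the group (-0.91, adjusted p = 0.0192), with its paralog Copz1 at 0.10. A dim Copz1 probe passed in Schmid but was above background on 1 of the 3 Schmid arrays and 0 of the wildtype arrays, so that it was at least 1.07-fold higher.

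The KDEL receptors return escaped chaperones to the ER, and 0 of the 3 passed in Schmid or Cog. Of all genes 5.8% rose and 5.75% fell in Schmid, and 1.89% and 0.837% in Cog. Kdelr1 was at 11.79, 11.59 and 11.47 in Schmid against 11.64, 12.18 and 12.24, and at 12.92, 12.43 and 12.76 in Cog against 11.99, 11.43 and 11.84. The Schmid arrays overlapped with their wildtype and the Cog arrays were all above theirs (0.95, SE 0.21, adjusted p = 0.0314). Kdelr2 differed by 0.75 in Schmid (adjusted p = 0.0185) and 0.13 in Cog. Kdelr3 was above its wildtype on every array in both, by 0.81 and 0.87 (adjusted p = 0.103 and 0.171).

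The last group holds the Sec22 proteins and the TRAPP complex, which tethers arriving vesicles. Of 11 genes 2 rose in Schmid (5.8% of all genes), at a median of 0.36. Sec22b is the SNARE of ER to Golgi vesicles, and its relatives Sec22a and Sec22c lack the SNARE domain. Sec22a was at 14.15, 13.23 and 13.32 in Schmid and 12.71, 10.58 and 11.98 in the wildtype, a 3.51-fold rise (SE 0.51, adjusted p = 0.0293). Of its 4 other probes 1 passed (1.47) and 3 did not. Sec22b differed by 0.54 at its brightest probe (adjusted p = 0.0587), and a second probe passed at 1.14 (adjusted p = 0.0246). None of the 8 Trappc genes passed in either mutant in limma. Copg2as2, the antisense transcript, was above background on 0 of the Schmid arrays, and its difference of -1.09 did not pass.

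Sec22c was the one member called in both mutants. It was at 11.24, 11.31 and 11.02 in Schmid against 10.41, 9.78 and 9.92, and at 11.01, 10.56 and 10.87 in Cog against 9.66, 10.29 and 9.26. No mutant array overlapped with its wildtype, and the rises were 2.22-fold (adjusted p = 0.0102) and 2.11-fold (adjusted p = 0.0414). The wildtype signals were near background, on which 2 of 3 and 1 of 3 arrays were well above. The other probes differed in Cog by -0.26 and -0.48, and the Cog call was lost under 16 of 25 alternative settings. In Schmid the other probes were not called either, and the 3 probes spanned 0.95 on the log2 scale. The Schmid call was lost under 4 of 25 settings.

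**Figure D2:**
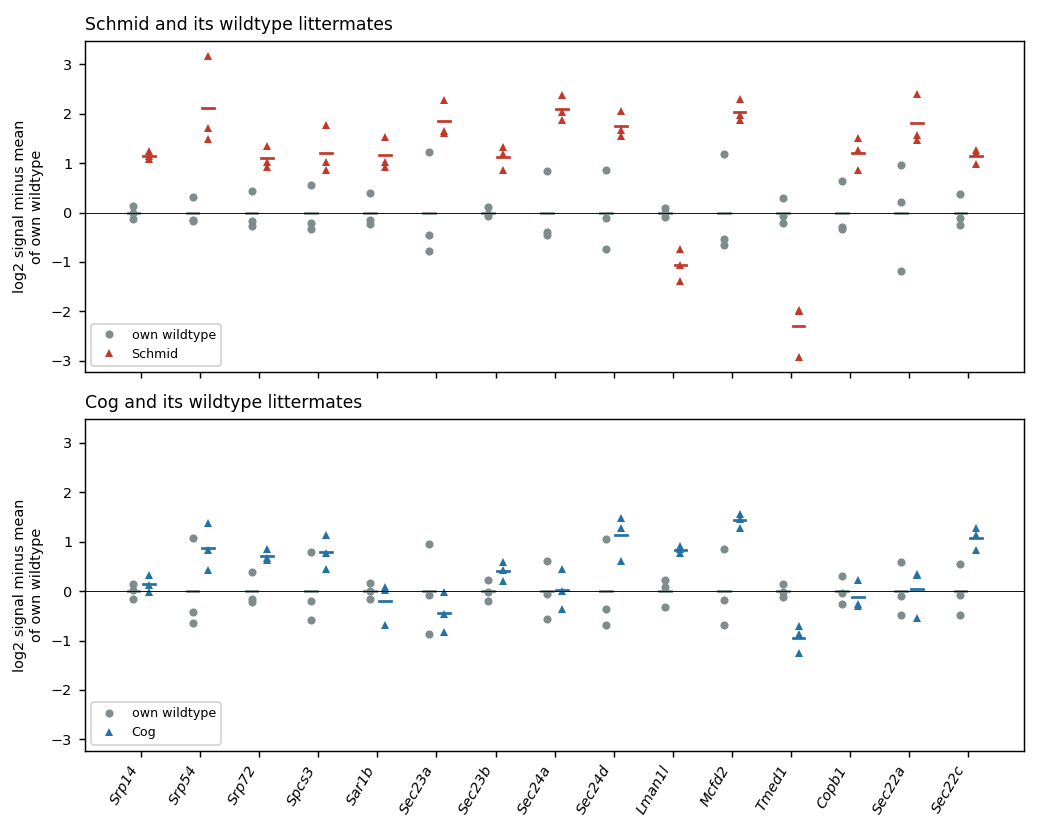
Log2 signal of each array, less the mean of its own wildtype group, for the 15 members that passed the test in either mutant, in Schmid (top) and Cog (bottom). Circles are wildtype arrays, triangles mutant arrays and short lines group means (n = 3). The Schmid triangles lie clear of the circles for all 15 genes, and in Cog they overlap with the circles for most.

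In Cog the 72 genes as a whole stood near their wildtype. Sec22c was the 1 gene that rose (1.39%, against 1.89% of all genes), and 0 fell at the same limits in limma, against 0.837% of all genes. At an unadjusted p under 0.05, 8 were lower (11.1%, against 10.4% of all genes). The median difference was 0.04, which turned to -0.09 and -0.10 under scaling to a common percentile, and the median of all genes was 0.00. The difference was positive in 41 genes and negative in 31. All Cog arrays were above the wildtype in 10 genes (17.2% of all genes), below in 6 (13.3% of all genes), and overlapped in 56. Among genes well above background on all arrays 0 of 65 members rose or fell, against 3.19% and 1.19%. At the adjusted p alone 5 genes were higher (Kdelr1, Lman1l, Sec22c, Sec61a1 and Srpr) and 0 lower, against 3.17% and 2.09% of all genes. The group medians ran from -0.19 for the SNARE and TRAPP genes to 0.87 for the KDEL receptors.

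Whether the mutants differed was tested as the change in Schmid minus the change in Cog. The difference passed in 9 of the 72 genes, with 6 changes more positive in Schmid (4.38% of all genes) and 3 more negative (7.02% of all genes). The 6 were Srp14 (1.01, adjusted p = 0.00551), Sar1b (1.35), Sec24a (2.07), Copb1 (1.33), Copb2 (1.08) and Trappc1 (1.39). Trappc1, a small TRAPP subunit, was at 11.14, 11.39 and 10.50 in Cog against 11.55, 12.33 and 12.26, and at 12.36, 12.37 and 12.49 in Schmid against 11.97, 11.80 and 12.37. Neither mutant passed alone, with differences of -1.04 in Cog (adjusted p = 0.0539) and 0.36 in Schmid. The 3 more negative were Lman1l (-1.90, SE 0.25, adjusted p = 0.00131), Kdelr1 (-1.35, adjusted p = 0.0126) and Tmed1 (-1.36, adjusted p = 0.0307). Sec23a had a difference of 2.28 between the mutants that did not pass (adjusted p = 0.0714). Without wildtype replicate 1 of the Schmid background the count was 18, and without wildtype replicate 2 of either background it was 2.

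**Figure D3:**
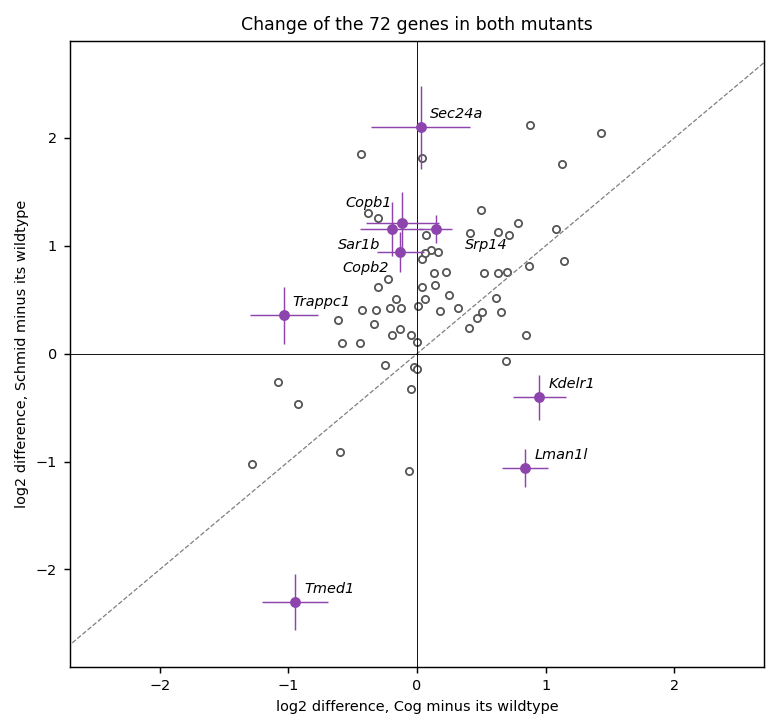
Log2 difference from own wildtype in Cog (x axis) and Schmid (y axis) for the 72 genes, with equality as a dashed line. Filled points with standard error bars are the 9 genes whose change differed between the mutants, and open points the others. Sec24a, Sar1b, Srp14, Copb1 and Copb2 lie above the line with Cog values near 0, and Lman1l and Kdelr1 at lower right.

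Between the wildtype groups 0 of the 72 genes passed in limma, against 0.272% of all genes higher and 0.283% lower in the Schmid background, and 8 (11.1%) had an unadjusted p under 0.05 in either direction, against 15.2% of all genes. In both mutants 37 genes had positive differences and 9 negative, and 26 differed in sign, as did 14699 of all 27962 genes.

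Several genes had more than 1 probe, and the probes of 16 of 46 such genes disagreed on the Schmid call and those of 2 on the Cog call. No gene had probes called in opposite directions. A probe other than the brightest was called, and the brightest not, for Srpr, Sec61a1, Ssr1, Tmed2, Copz1 and Sec22b in Schmid and for Tmed10 in Cog. For the others the brightest probe was called and at least 1 other probe was not. These were Copb1, Lman1l, Mcfd2, Sec22a, Sec22c, Sec23a, Sec23b, Spcs3, Srp54 and Srp72 in Schmid, and Sec22c in Cog. Most of the Schmid calls were thus not shared by all probes of the gene. Probes that disagreed in call could still be close in size. Those of Srp72 and Sec23b spanned 0.11 and 0.15 on the log2 scale, and those of Srp54 and Sec22a 1.44 and 2.06. For Sec23a and Mcfd2 the probe not called was above background on no array. Counting a gene if any of its probes passed gave 19 higher in Schmid and 2 in Cog.

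**Figure D4:**
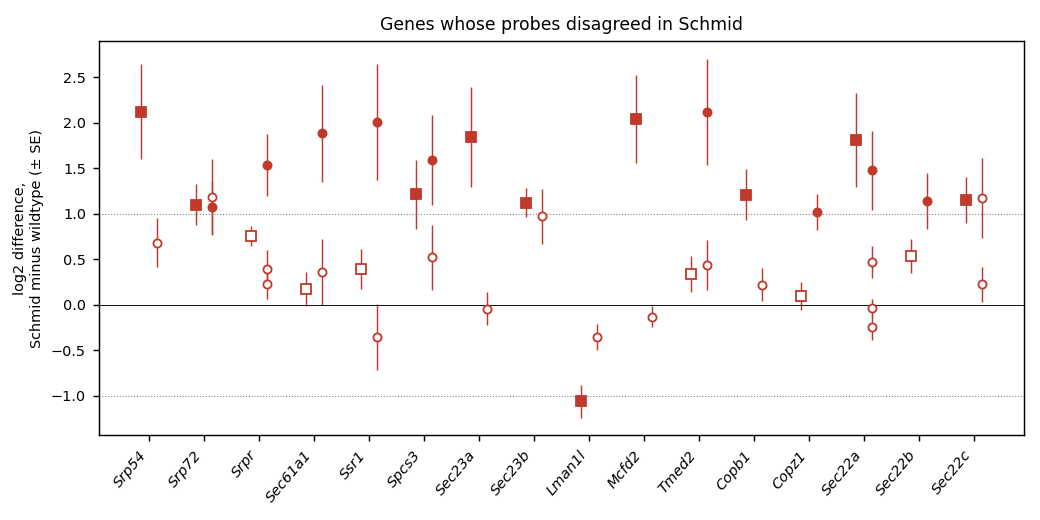
Log2 difference in Schmid with standard errors for every probe of the 16 genes whose probes disagreed. Squares are the brightest probe of a gene, circles its other probes, and filled marks passed the test. For Srpr, Sec61a1, Ssr1, Tmed2, Copz1 and Sec22b the filled mark is a circle.

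The 5 genes whose promoters hold TGACGTGG had differences in Schmid of 1.21 (Copb1), 0.94 (Copb2), 0.81 (Kdelr3), 1.85 (Sec23a) and 1.76 (Sec24d), and 3 of them passed. In Schmid 18.1% of the 72 genes and 5.8% of all genes rose. Copb1 and Sec23a passed at 1 of their 2 probes. The differences of the 5 genes in Cog were -0.11, -0.13, 0.87, -0.43 and 1.13, and none passed, where 1.39% of the 72 genes and 1.89% of all genes rose. A link between the motif and the changes was not tested. The motif was looked for after the changes were known.

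Other genes of the pathway, listed apart from the rule, moved alongside. Of 64 listed genes 56 were on the array, and in Schmid 11 rose and 1 fell, against 5.8% and 5.75% of all genes, at a median of 0.59. The rises included the Golgi tether Golgb1 (6.74-fold, adjusted p = 0.0293), the small GTPase Arf4 (5.37-fold, adjusted p = 0.00544), the Golgi membrane protein Yipf5 (2.73-fold), the vesicle tethers Vdp (2.56-fold) and Rint1 (2.30-fold), and the SNARE regulators Napa (2.27-fold) and Scfd1 (2.18-fold). Rab1b, a GTPase of this step, fell 3.05-fold (adjusted p = 0.0447). Arf4 was at 17.09, 16.27 and 16.45 in Schmid against 15.32, 13.35 and 13.86, and in Cog at 13.65, 13.86 and 13.81 against 13.24, 14.47 and 14.21. It overlapped in Cog, and its change differed between the mutants (2.63, adjusted p = 0.0246). In Cog 1 gene of the 56 rose, against 1.89% of all genes, and 0 fell, at a median of 0.19. That gene was Arfgap3, a regulator of the Arf GTPases of COPI vesicles, at 14.71, 14.88 and 14.68 against 13.72, 13.21 and 13.36 (2.51-fold, adjusted p = 0.00239). In Schmid Arfgap3 differed by 0.89 (adjusted p = 0.0026), and the difference between the mutants did not pass (adjusted p = 0.186). Without wildtype replicate 2 of the Schmid background 4 genes of the list rose in Schmid, and 19 without wildtype replicate 1.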

How the data were processed

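Each of the 12 samples gave 1 single-colour array. The authors deposited the scanner output of Agilent Feature Extraction 9.5.3, whose mean and local background intensity columns were used, and a series matrix of log2 values, used as an alternative (lowest correlation of an array with the values made here 0.99987). Following the methods of the study, intensities were corrected with normexp (offset 50) and quantile normalized, controls removed and the spots of each probe averaged. Spots marked as outliers were also left out here. Group means of all 12 arrays were fitted with limma 3.58.1 (R 4.3.3; 8 residual degrees of freedom), with Benjamini-Hochberg adjustment over 41174 probes. A gene was called from a 2-fold change with an adjusted p up to 0.05, at its probe with the highest mean signal. The number of arrays limits the precision. Gene names are those of the array, and Sec11l1, Sec11l3, Sec13l1, Copg and Srp54 are now Sec11a, Sec11c, Sec13, Copg1 and Srp54a.

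Named are called members, those that differed between mutants or between wildtypes, those with disagreeing probes, the brightest of each role, paralogs of called members, and up to 8 called genes of the other list. Members, lists and motifs were chosen with earlier results of these data known. The fit was tested on simulated data. Alternatives were other backgrounds and scalings, a filter on dim probes, position and GC trends, the replicate number or slide as a block, array weights, other call rules and each array left out. The slide block, with a correlation of -0.12, cannot separate slide from group, since no mutant array shared a slide with its own wildtype. Mice of the same number are not stated to be related, and arrays of Cog and its wildtype with the same number did not deviate together.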

Additional observations from a re-analysis of the deposited data

Results flagged for a closer look

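The change in Schmid differed from the change in Cog, by the interaction contrast in limma, in 9 genes of ER to Golgi transport. The log2 change in Schmid less that in Cog was -1.90 for Lman1l (adjusted p = 0.00131), 1.01 for Srp14 (adjusted p = 0.00551), -1.35 for Kdelr1 (adjusted p = 0.0126), 1.08 for Copb2 (adjusted p = 0.0197) and 1.35 for Sar1b (adjusted p = 0.0266). It was 2.07 for Sec24a (adjusted p = 0.0294), 1.39 for Trappc1 (adjusted p = 0.0306), -1.36 for Tmed1 (adjusted p = 0.0307) and 1.33 for Copb1 (adjusted p = 0.0482). Of 24 alternative settings the Lman1l difference lost its call in 1 and the Kdelr1 difference in 4, and the Tmed1 difference in 12 and the Sec24a difference in 13. The groups of 3 were too small for the test of single outlying arrays.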

How the results depend on the processing

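No called result on a named gene changed direction under the 14 other settings or with any of the 12 arrays left out. Of all 66 named results, called or not, the difference between mutants of Tmed6 changed sign, which was 0.83 and became -1.84 and -0.35 with the processed signal, at signals not above background. Main counts, in the order higher and lower in Schmid, then higher and lower in Cog, were 13, 2, 1 and 0 for the 72 genes and 11, 1, 1 and 0 for the pathway list. Those that moved by over 1.5 times, and the cause was not tested, were these. For the 72 genes, the count higher in Schmid became 21 with array weights, 20 at the adjusted p alone and 0 with treat (a test against a 2-fold change), and that lower in Schmid 1 with position trends removed, with or without GC, and with treat. The count higher in Cog became 0 with the processed signal, with normexp at a common percentile, with only the groups compared and with treat, 3 with slide as a random block, 7 with array weights, 5 at the adjusted p alone and 2 with any probe. That lower in Cog became 2 with the processed signal quantile normalized, 4 with array weights, and 1 with the deposited matrix, the dim filter, both trend removals and the slide block. The difference between mutants (9) became 3 with the processed signal at a common percentile, 4 and 5 with trends removed and 0 with treat, and that between wildtypes (0) became 1 with array weights.

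For the pathway list, the count higher in Schmid became 18 with normexp at a common percentile, with array weights and at the adjusted p alone, 6 with only the groups compared and 0 with treat. That lower in Schmid became 2 with 3 scalings, with the position trend removed, with array weights and with any probe, 3 at the adjusted p alone and 0 with only the groups compared and with treat. That higher in Cog became 0 with the processed signal at a common percentile and with treat, 3 with the slide block, 6 with array weights and 4 at the adjusted p alone. Leaving out 1 array at a time gave 4 to 25 and 1 to 3 members in Schmid, 0 to 3 and 0 to 1 in Cog, 2 to 18 between mutants and 0 to 2 between wildtypes, and 4 to 19, 0 to 2 and 1 to 3 genes of the list. The member medians stayed within the spread between arrays (0.43 to 0.66 in Schmid, -0.02 to 0.19 in Cog with an array left out). With the replicate block, as a paired fit, 15 members were higher and 2 lower in Schmid, 1 other than Sec22c was higher in Cog and 9 differed between mutants. Deviations from the group mean of arrays with the same number correlated over all probes by 0.19, 0.17 and 0.07 for Schmid with its wildtype, -0.12, 0.07 and -0.11 for Cog with its wildtype and 0.41, 0.05 and 0.19 between the wildtypes. Over probes above background on all arrays these were 0.31, 0.28 and 0.12, then -0.21, 0.15 and -0.20, and 0.50, 0.12 and 0.27. Scaling the processed signal to a common percentile moved the median of all genes to -0.41 in Schmid, with 1956 genes higher and 3093 lower in place of 1622 and 1607, and to 0.31 in Cog. Genes near background have only bounds on their change.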

Other observations

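Xbp1, whose product is a transcription factor of the unfolded protein response, rose 2.93-fold in Schmid (adjusted p = 0.02) and differed by 0.87 in Cog (adjusted p = 0.248). All Cog arrays were above their wildtype. These values are transcript levels and do not show splicing, and the study detected spliced Xbp1 in both mutants by RT-PCR. Creb3l2, which encodes the chondrocyte factor Bbf2h7 that is known to act on Sec23a, differed by 0.14 for Schmid (adjusted p = 0.679) and 0.67 for Cog (adjusted p = 0.125). Its mutant and wildtype arrays overlapped in both comparisons.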
